A study of Homo sapiens with 24 samples.

Results

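The genes of MHC class I antigen presentation were examined in 24 RNA-seq libraries of 2 ccRCC cell lines. Clear cell renal cell carcinoma (ccRCC) is the most common kidney cancer, and PAX8 is a transcription factor of the renal lineage. The members were chosen by gene name, with earlier results of these data known, so their counts beside those of all genes are a description. They number 9 of the 26475 genes listed in every library: the heavy chains HLA-B, HLA-C, HLA-E and HLA-F, the light chain B2M, the peptide transporter subunits TAP1 and TAP2, the loading factor TAPBP and the transactivator NLRC5. All 9 passed the filter on low counts, which kept 15665 genes.

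Class I molecules display peptides from inside the cell to CD8 T cells. The proteasome cuts proteins into peptides, the TAP1-TAP2 transporter carries these into the endoplasmic reticulum, and tapasin, the product of TAPBP, holds empty class I molecules at the transporter until a peptide binds. Heavy chains generally reach the cell surface together with beta-2 microglobulin, the product of B2M. HLA-B and HLA-C are classical, highly variable heavy chains, whereas HLA-E and HLA-F are less variable and are read mainly by receptors of natural killer (NK) cells. NLRC5 drives transcription of class I genes through a promoter module bound by RFX, CREB/ATF and NF-Y factors, and interferons raise the same genes, in part through IRF factors.

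The lines were 786-M1A and OS-LM1, metastatic derivatives of the VHL-mutant lines 786-O and OS-RC2, grown in culture in RPMI with 10% serum. Each line carried shPAX8-1 or shPAX8-2, RNAi hairpins against PAX8, or sgNTC18, a guide RNA that its name describes as non-targeting, with 4 replicates of each. The study's methods name a different control, a hairpin against Renilla luciferase, so a difference between shPAX8 and sgNTC18 libraries and a difference between the RNAi and guide RNA backgrounds, or between experiments, cannot be told apart here. The comparison of shPAX8-1 with shPAX8-2 does not use the sgNTC18 libraries. Nothing in the labels says that replicates are separate cultures, and p-values then measure only the spread between these libraries. The library kit is given as KAPA (stranded) in the labels but as Lexogen in the study's methods, so the strand rule of the counting is uncertain, and each line is a single metastatic derivative. The growth conditions given name no interferon.

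The hairpin sequences are shown because every depletion result rests on them, as the study lists them, with bases 2 to 8 from the 5′ end in capitals. These bases are the seed if the listed strand is the guide strand.
shPAX8-1: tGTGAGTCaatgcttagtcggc
shPAX8-2: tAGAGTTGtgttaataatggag
The capitals differ between the hairpins.

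Of the 9 genes, 7 lie on the short arm of chromosome 6 (GRCh38.p14), from HLA-F at chr6:29723434-29738532 through HLA-E at chr6:30489509-30494194, HLA-C at chr6:31268749-31272092, HLA-B at chr6:31353875-31357179, TAP2 at chr6:32821831-32838739 and TAP1 at chr6:32845209-32853704 to TAPBP at chr6:33299694-33314078. B2M lies at chr15:44711517-44718145 and NLRC5 at chr16:56989557-57083520. Promoter sequences from RefSeq (GRCh38.p14) were matched for 7 members. Stretches upstream of the transcription start are shown because they hold the short motifs through which class I genes are known to be induced. Capitals mark 2 paired elements of interferon-responsive sites, GAANNGAAA and a longer form with GAAA on both sides of 2 free bases. The forms are spaced differently, so a match to the longer form need not match GAANNGAAA. Capitals also mark TGACG (the core of CREB/ATF sites), CCAAT (the core of NF-Y sites) and a 10-base NF-kB motif (GGGGA, 1 free base, TCCC). Each was searched on both strands in the 250 bases before the start.
HLA-B, chr6:31357220-31357379, minus strand: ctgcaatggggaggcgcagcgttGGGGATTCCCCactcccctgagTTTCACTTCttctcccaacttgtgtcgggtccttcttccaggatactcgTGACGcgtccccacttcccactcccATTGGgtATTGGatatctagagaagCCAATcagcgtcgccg
HLA-C, chr6:31272133-31272292, minus strand: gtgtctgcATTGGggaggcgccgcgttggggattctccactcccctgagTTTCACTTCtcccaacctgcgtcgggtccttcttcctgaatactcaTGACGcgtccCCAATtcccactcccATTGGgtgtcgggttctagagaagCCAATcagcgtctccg
HLA-F, chr6:29723264-29723393, plus strand: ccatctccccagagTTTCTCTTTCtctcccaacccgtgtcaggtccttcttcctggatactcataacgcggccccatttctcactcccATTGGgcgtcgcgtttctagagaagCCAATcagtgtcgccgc
B2M, chr15:44711357-44711486, plus strand: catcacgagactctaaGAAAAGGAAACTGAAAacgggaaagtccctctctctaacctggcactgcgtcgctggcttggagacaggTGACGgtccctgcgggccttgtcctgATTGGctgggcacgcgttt
TAP1, chr6:32853805-32853854, minus strand: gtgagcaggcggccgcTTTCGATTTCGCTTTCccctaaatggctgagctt
TAP2, chr6:32838760-32838819, minus strand: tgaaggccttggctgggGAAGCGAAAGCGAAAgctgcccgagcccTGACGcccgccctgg
TAPBP, chr6:33314079-33314118, minus strand: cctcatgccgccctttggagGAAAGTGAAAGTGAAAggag
The first paired motif, GAANNGAAA, was present in 6.56% of the 35116 RefSeq promoters searched in the same way and the longer form in 3.02%. TGACG was present in 21.2%, CCAAT in 32.0% and the NF-kB motif in 0.367%. In B2M, TAP1 and TAPBP 2 matches of the longer form overlap by the shared GAAA, and the NF-kB match of HLA-B reads on both strands. A match is a run of letters and was not tested as a binding site.

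The depth was between 11634419 and 52059375 expected counts per library, and levels are given as CPM, counts scaled to a common library size, after TMM normalisation. The sgNTC18 libraries had medians of 22706538.5 counts in 786-M1A and 35358667 in OS-LM1, above the medians of both hairpins in each line. PAX8 was lower in every shPAX8 library. In 786-M1A it was between 292 and 393 CPM with sgNTC18, between 14.8 and 22.9 with shPAX8-1 and between 39.99 and 45.5 with shPAX8-2. In OS-LM1 it was between 245 and 279 CPM with sgNTC18, between 59.8 and 89.2 with shPAX8-1 and between 63.8 and 97.03 with shPAX8-2. Of the 11 renal and ccRCC markers VIM led, and the renal lineage genes PAX8 and CDH6 were between 238 and 341 CPM in the sgNTC18 means of both lines, while CA9 was at 0 in 786-M1A sgNTC18 libraries and EPCAM at 0 in OS-LM1 sgNTC18 libraries. Of 10 leukocyte and blood markers, whose cells carry abundant class I transcripts, PTPRC was at or below 0.24 CPM in every group mean and CD3E and MS4A1 were at 0, and the summed list reached at most 5.80 CPM in any library. ITGAM and CD14 differed between groups at these low levels. With sgNTC18, shPAX8-1 and shPAX8-2, mean ITGAM was at 4.11, 1.08 and 1.37 CPM in OS-LM1 and 0.27, 0.05 and 0.08 in 786-M1A. In the same order mean CD14 was at 0.36, 3.27 and 1.93 CPM in OS-LM1 and 0.26, 1.76 and 1.08 in 786-M1A. The endothelial and stromal sum also moved with the groups. In 786-M1A, where PDGFRB was nearly all of it, it was between 533.9 and 726.3 CPM with sgNTC18, between 194.7 and 421.8 with shPAX8-1 and between 663.4 and 886.7 with shPAX8-2. In OS-LM1, where COL1A1 was nearly all of it, it was between 14.4 and 19.9 CPM with sgNTC18, between 90.03 and 111.6 with shPAX8-1 and between 100.7 and 207.04 with shPAX8-2. The defining endothelial markers PECAM1 and CDH5 were at or below 0.49 and 0.03 CPM in every group mean, and the part of these markers in the members' values was not tested.

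Another property of the libraries moved with the groups. The rank correlation over genes between a library's deviation from the mean and the GC content of the gene was between 0.221 and 0.44 in 786-M1A sgNTC18 libraries and between 0.042 and 0.159 in OS-LM1 sgNTC18 libraries. It was between 0.102 and 0.346 with shPAX8-2 in 786-M1A, between -0.395 and -0.264 with shPAX8-1 in OS-LM1 and between -0.407 and -0.056 with shPAX8-2 in OS-LM1. With shPAX8-1 in 786-M1A it was 0.154 and 0.043 in replicates 1 and 2 and -0.308 and -0.326 in replicates 3 and 4. Transcripts of B2M have 38.9% GC and those of TAP2 47.2%, and the other members lie between 52.0% and 62.7%. A member's value past the threshold with or without this trend is therefore also given after a spline of each library on GC content was removed, where that changed the call or moved the value by more than 1.5 times. Values of genes outside the members are given with the trend left in, and their dependence on it is not shown.

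On deposited TPM values, which divide by transcript length, HLA-B and B2M were the most abundant members in 786-M1A sgNTC18 libraries. HLA-B was at 2419 ± 199 TPM (SD, n = 4) and B2M at 2073 ± 296, a difference within their spread. HLA-C followed at 1087 ± 112, TAPBP at 741 ± 26.3, HLA-E at 193 ± 14.7, TAP1 at 139 ± 9.24, HLA-F at 119 ± 12.7, TAP2 at 35.1 ± 2.05 and NLRC5 at 9.21 ± 1.67 TPM. In OS-LM1 sgNTC18 libraries B2M led at 1232 ± 97.8 TPM, ahead of TAPBP at 353 ± 39.0 and HLA-B at 266 ± 21.6. HLA-C was at 112 ± 16.3 TPM in that line and NLRC5 at 3.04 ± 0.217, again the lowest.

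The heavy chains were lower in shPAX8 than in sgNTC18 libraries in both lines and with both hairpins. HLA-B was at 1742, 2233, 2159.8 and 1969.8 CPM in the 786-M1A sgNTC18 libraries. It was at 561, 408, 333 and 325 CPM with shPAX8-1 and at 689, 692, 528 and 690.3 with shPAX8-2. The OS-LM1 levels were 262, 217, 240.2 and 224 CPM with sgNTC18, 68.1, 87.6, 77.1 and 75.5 with shPAX8-1 and 79.1, 76.6, 90.8 and 92.5 with shPAX8-2. No shPAX8 library reached the lowest sgNTC18 library of its line. On the log2 scale HLA-B fell by 2.32 (SE 0.14, adjusted p = 9.50e-14, edgeR) with shPAX8-1 in 786-M1A and changed by -1.64 (SE 0.14, adjusted p = 1.03e-10) with shPAX8-2. The values in OS-LM1 were -1.61 (SE 0.14, adjusted p = 1.18e-10) and -1.47 (SE 0.14, adjusted p = 7.40e-10).

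HLA-C, the other classical heavy chain measured, showed the same order. It was at 788, 1055, 959.8 and 871 CPM with sgNTC18 in 786-M1A, at 296, 229.8, 174 and 188 with shPAX8-1 and at 365, 382, 288 and 388 with shPAX8-2. In OS-LM1 the levels were 119.7, 84.5, 98.2 and 97.2 CPM with sgNTC18, 28.6, 38.4, 32.9 and 33.7 with shPAX8-1 and 37.2, 28.1, 47.6 and 38.9 with shPAX8-2. The sgNTC18 libraries again lay above all shPAX8 libraries of the line, and log2 fold changes were -2.05 and -1.37 in 786-M1A and -1.58 and -1.39 in OS-LM1, with SE of 0.16 each and the highest adjusted p at 2.75e-08 (edgeR).

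HLA-F, a heavy chain recognised by NK receptors, changed most among the heavy chains in 786-M1A. It was at 72.7, 93.9, 85.7 and 75.0 CPM with sgNTC18, at 11.5, 8.76, 7.52 and 7.79 with shPAX8-1 and at 16.8, 17.0, 13.4 and 19.5 with shPAX8-2. These are a 9.18-fold and a 4.89-fold lower level (log2 fold changes -3.20, SE 0.14, and -2.29, SE 0.13). In OS-LM1 it was at 25.7, 25.4, 22.6 and 22.2 CPM with sgNTC18, between 6.75 and 7.72 with shPAX8-1 and between 9.37 and 13.2 with shPAX8-2, and its log2 fold changes were -1.72 (SE 0.14) and -1.07 (SE 0.13). The groups did not overlap in either line.

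HLA-E, which presents signal peptides of other class I chains to NK receptors, changed least of the heavy chains. It was between 246 and 308 CPM with sgNTC18, between 98.4 and 139 with shPAX8-1 and between 131 and 170.3 with shPAX8-2 in 786-M1A. The OS-LM1 libraries were between 87.3 and 109.8 CPM with sgNTC18, between 51.8 and 60.5 with shPAX8-1 and between 56.1 and 77.2 with shPAX8-2. It fell in all of these comparisons, with log2 fold changes of -1.31, -0.84, -0.74 and -0.53 (SE 0.12 each), and of -0.46 (SE 0.08) and -0.32 (SE 0.08) in OS-LM1 after the GC trend was removed. All 16 heavy chain comparisons passed the threshold with and without the GC trend. Reads of the heavy chain genes can be assigned to a near-identical relative, and the cells' own alleles may differ from the reference, so the division of counts among these genes is uncertain.

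**Figure D1:**
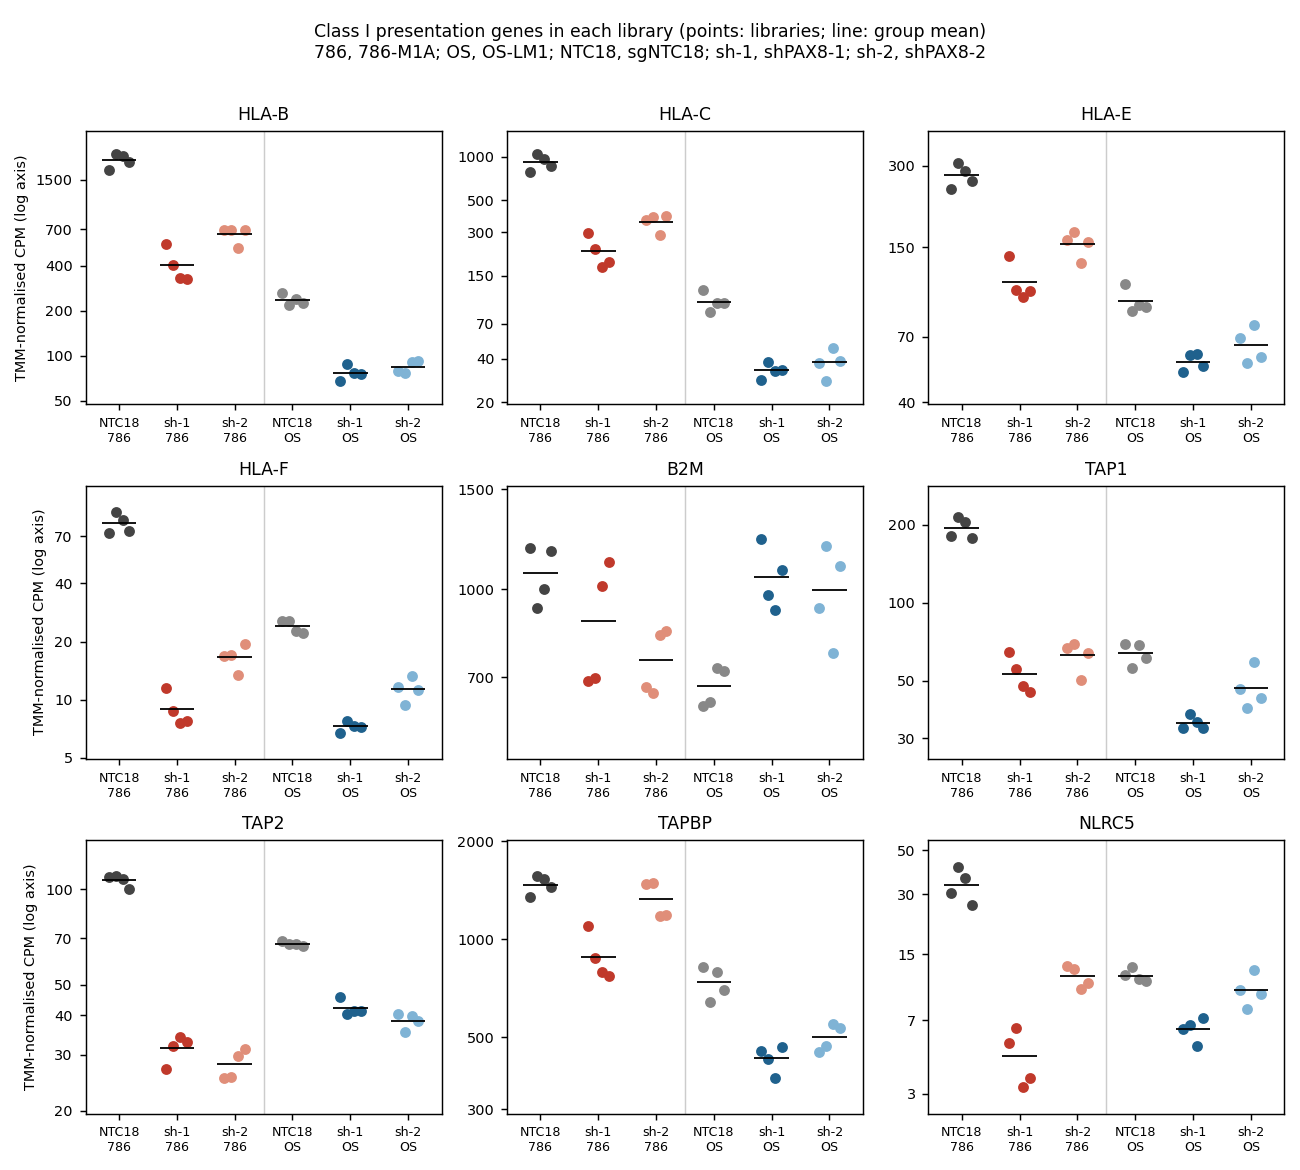
TMM-normalised CPM (log axis, a different range in each panel) of the 9 members in each of the 24 libraries, grouped by line and construct, with a line at the mean of 4 libraries. The sgNTC18 libraries lie above all shPAX8 libraries of their line for HLA-B, HLA-C, HLA-E, HLA-F and TAP2, whereas B2M in OS-LM1 lies lower with sgNTC18 (624 to 726 CPM) than with either hairpin.

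The sum of the heavy chains, which does not depend on how reads are divided among HLA-B, HLA-C, HLA-E and HLA-F, was between 2848 and 3689 CPM with sgNTC18 in 786-M1A. It was between 613 and 1007 CPM with shPAX8-1 and between 959.7 and 1262 with shPAX8-2. Levels in OS-LM1 were between 414 and 517 CPM with sgNTC18, between 155 and 194 with shPAX8-1 and between 170.1 and 229 with shPAX8-2. The difference of mean log2 CPM was -2.16 and -1.49 in 786-M1A and -1.38 and -1.19 in OS-LM1, beside a spread between replicates (SD pooled over both groups) of 0.26, 0.18, 0.13 and 0.16. A sum over 9 class I genes and pseudogenes of the table gave -1.92, -1.20, -1.28 and -1.08.

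B2M, the partner of every heavy chain, had log2 fold changes nearer to 0 than those of any heavy chain in 786-M1A, and with shPAX8-1 the call depended on the libraries and the GC trend. In 786-M1A it was at 1184, 927, 999.96 and 1168 CPM with sgNTC18, at 691, 699, 1014 and 1116 with shPAX8-1 and at 672, 656, 832 and 844 with shPAX8-2. Replicates 1 and 2 of shPAX8-1 lay below every sgNTC18 library and replicates 3 and 4 within their range, the same pairs that differ in GC trend. The log2 fold change was -0.28 with shPAX8-1 (SE 0.15, 95% interval -0.57 to 0.01, adjusted p = 0.0914, edgeR), and B2M fell by 0.51 with shPAX8-2 (SE 0.15, adjusted p = 0.00405). With the GC trend removed the value for shPAX8-1 was -0.76 (SE 0.09, adjusted p = 1.23e-08), and it was -0.59 (adjusted p = 0.00122) with replicates 1 and 2 only, 0.01 (adjusted p = 0.962) with replicates 3 and 4 only and -0.42 (adjusted p = 0.0153) without replicate 4. The part of the GC trend in B2M was not tested further.

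In OS-LM1 B2M rose. It was at 624, 633, 726 and 717 CPM with sgNTC18, at 1227, 977, 921 and 1080.3 with shPAX8-1 and at 925, 1194, 773 and 1097 with shPAX8-2, with no overlap. The log2 fold changes were 0.64 (SE 0.15, adjusted p = 0.000467, edgeR) and 0.56 (SE 0.15, adjusted p = 0.00173). After removal of the GC trend they were 0.27 (SE 0.09) and 0.25 (SE 0.09), still past the threshold. The sum of the heavy chains and B2M thus differed in direction in OS-LM1, and the counts of the heavy chains were between 0.605 and 0.828 times those of B2M with sgNTC18 and between 0.127 and 0.296 times with either hairpin. In 786-M1A the same ratio of counts was between 2.41 and 3.98 with sgNTC18 and between 0.559 and 1.92 with either hairpin.

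**Figure D2:**
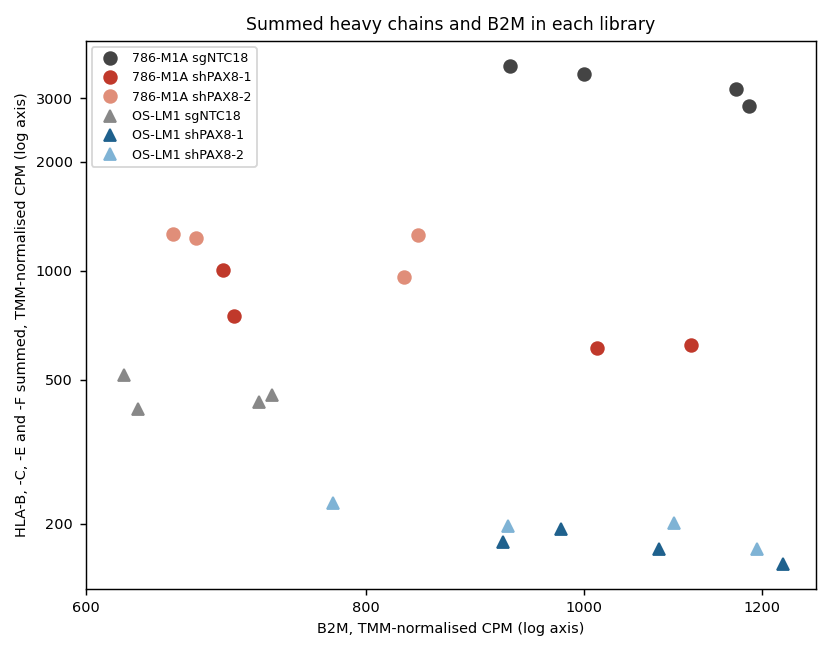
Summed counts of HLA-B, HLA-C, HLA-E and HLA-F (vertical, TMM-normalised CPM, log axis) against B2M (horizontal, TMM-normalised CPM, log axis), 1 point per library, circles for 786-M1A and triangles for OS-LM1. Both hairpins lie below sgNTC18 on the vertical axis in each line, and in OS-LM1 they also lie to the right of it.

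The transporter subunits fell in all 4 comparisons. TAP1 was at 181, 215, 204 and 178 CPM with sgNTC18 in 786-M1A, at 64.7, 55.6, 47.6 and 45.3 with shPAX8-1 and at 66.9, 69.4, 50.5 and 64.3 with shPAX8-2. In OS-LM1 it was at 69.4, 55.9, 68.8 and 61.3 CPM with sgNTC18, between 33.0 and 37.3 with shPAX8-1 and at 46.5, 39.5, 59.1 and 42.9 with shPAX8-2. Here shPAX8-2 replicate 3 lay above sgNTC18 replicate 2, the overlap of the groups. Log2 fold changes of TAP1 were -1.87 and -1.63 in 786-M1A and -0.89 and -0.44 in OS-LM1, with SE of 0.13 each. With the GC trend removed the value for shPAX8-1 in OS-LM1 was -0.53 (SE 0.08). The value of -0.44 had an adjusted p of 0.00368 (edgeR) and moved to -0.18 (SE 0.08) with the GC trend removed, or to -0.17 with an adjusted p of 0.0577 when GC content was taken from the transcript nearest in length.

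TAP2 had the smallest standard errors of the members. It was between 100.1 and 111 CPM with sgNTC18, between 27.0 and 34.1 with shPAX8-1 and between 25.3 and 31.4 with shPAX8-2 in 786-M1A. The OS-LM1 libraries were between 66.3 and 68.7 CPM with sgNTC18, between 40.3 and 45.6 with shPAX8-1 and between 35.4 and 40.2 with shPAX8-2. Its log2 fold changes were -1.76, -1.94, -0.68 and -0.81, with SE of 0.09 each, and the groups did not overlap. Removal of the GC trend gave -1.86, -1.96, -0.75 and -0.84.

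TAPBP was at 1353, 1564, 1528 and 1445 CPM with sgNTC18, at 1100.3, 873, 794 and 770.2 with shPAX8-1 and at 1476, 1494, 1177 and 1188 with shPAX8-2 in 786-M1A. Replicates 1 and 2 of shPAX8-2 lay within the sgNTC18 range and replicates 3 and 4 below it. TAPBP fell by 0.74 with shPAX8-1 (SE 0.11, adjusted p = 2.73e-06, edgeR), and with shPAX8-2 its log2 fold change was -0.14 (SE 0.11, 95% interval -0.37 to 0.08, adjusted p = 0.284). Levels in OS-LM1 were between 640.4 and 822 CPM with sgNTC18, between 375 and 465 with shPAX8-1 and between 451 and 551 with shPAX8-2, and its log2 fold changes were -0.78 (SE 0.12) and -0.56 (SE 0.11). Without the GC trend the 3 called values of TAPBP were -0.33, -0.43 and -0.29, each past the threshold.

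NLRC5 was the least abundant member, with between 54 and 1122 counts per library. It was at 30.3, 41.1, 36.3 and 26.5 CPM with sgNTC18 in 786-M1A, at 5.39, 6.41, 3.25 and 3.59 with shPAX8-1 and at 13.1, 12.7, 10.0 and 10.7 with shPAX8-2. These levels did not overlap, and the log2 fold changes of NLRC5 were -2.84 (SE 0.19, adjusted p = 4.21e-13, edgeR) and -1.52 (SE 0.17, adjusted p = 2.53e-08). In OS-LM1 it was at 11.8, 12.9, 11.2 and 11.03 CPM with sgNTC18, at 6.32, 6.61, 5.22 and 7.21 with shPAX8-1 and at 9.94, 8.0, 12.5 and 9.54 with shPAX8-2. It fell by 0.89 with shPAX8-1 (SE 0.18, adjusted p = 7.97e-05), and its value was -0.51 (SE 0.12) with the GC trend removed. With shPAX8-2 the log2 fold change was -0.22 (SE 0.17, 95% interval -0.56 to 0.11, adjusted p = 0.264) and turned to 0.05 (SE 0.11) with the GC trend removed, while the heavy chains of the same libraries were 1.45-fold to 2.78-fold lower than with sgNTC18.

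Most genes differed between shPAX8 and sgNTC18 libraries, which sets the background for these counts. With shPAX8-1 in 786-M1A 8 of 9 members fell and none rose at an adjusted p under 0.05, beside 34.6% of all 15665 genes that fell, 34.9% that rose and 69.5% called in either direction. With shPAX8-2 in 786-M1A 8 of 9 fell, beside 31.5% of all genes that fell, 30.8% that rose and 62.4% called. With shPAX8-1 in OS-LM1 8 fell and B2M rose, beside 32.9% of all genes that fell, 34% that rose and 67% called. With shPAX8-2 in OS-LM1 7 fell and B2M rose, beside 32.1% that fell, 31.4% that rose and 63.5% called, and 4 members passed with an absolute log2 fold change over 0.58, beside 46.8% of all genes. In that comparison alone the share of members called past the fold limit, in either direction, is near that of all genes. In the order of the 4 comparisons 8, 7, 8 and 4 members fell past this limit, beside 4366, 3740, 4003 and 3817 of all 15665 genes. B2M rose past it with shPAX8-1 in OS-LM1. At an adjusted p under 0.05 alone nearly all called members fell, whereas all genes rose and fell in similar shares. The median log2 fold change of the members was -1.87, -1.52, -0.89 and -0.56 in these comparisons, and that of all genes tested was between -0.03 and 0.01. The comparisons of both hairpins in a line share their sgNTC18 libraries.

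**Figure D3:**
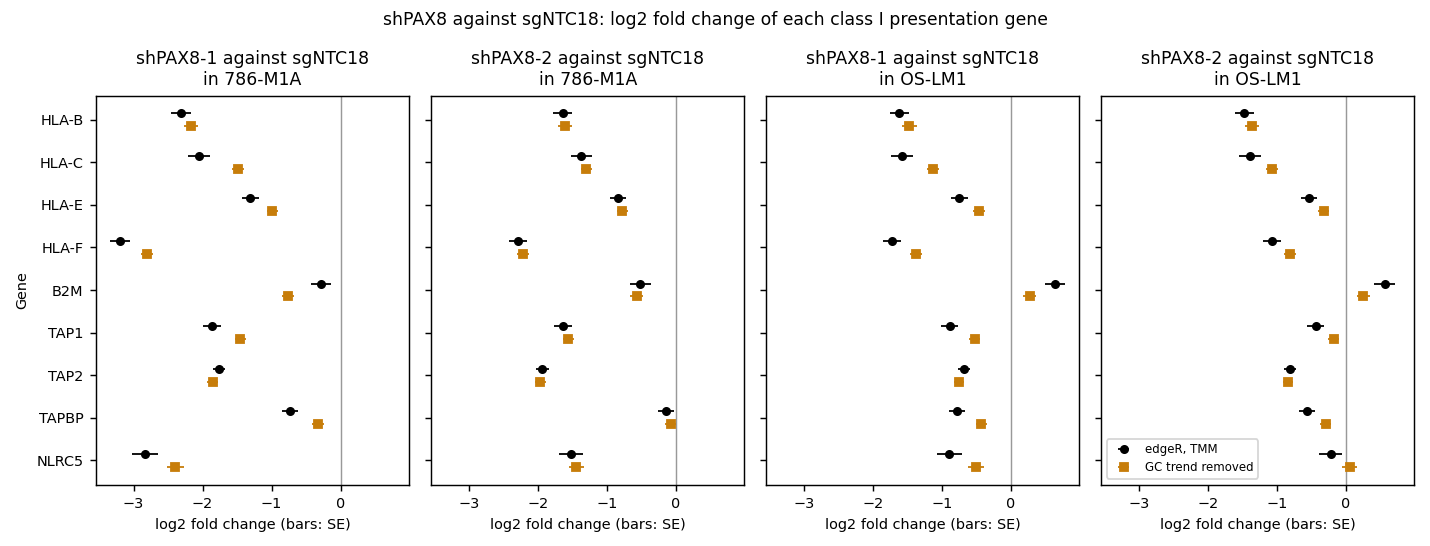
Log2 fold change (horizontal, bars 1 SE) of each member for shPAX8 against sgNTC18, 1 panel per hairpin and line, from the edgeR fit (black circles) and after removal of the GC trend (orange squares). All members lie below 0 in both 786-M1A panels, and B2M lies above 0 in both OS-LM1 panels (0.64 and 0.56, or 0.27 and 0.25 with the GC trend removed).

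The hairpins themselves were compared within the shPAX8 libraries. In 786-M1A PAX8 was 2.26-fold lower with shPAX8-1 than with shPAX8-2, and 6 of 9 members were lower with shPAX8-1 and none higher, beside 23.2% of all genes lower, 24.9% higher and 48.1% called. NLRC5 differed most, at 4.66 ± 1.49 CPM (SD, n = 4) with shPAX8-1 and 11.64 ± 1.501 with shPAX8-2, a log2 fold change of -1.31 (SE 0.19, adjusted p = 3.66e-06, edgeR) with no overlap. HLA-F was at -0.91 (SE 0.14) and TAPBP at -0.59 (SE 0.11), also with no overlap. HLA-B and HLA-C were at -0.68 each (SE 0.14 and 0.15) and HLA-E at -0.47 (SE 0.12), and for these the groups overlapped through replicate 1 of shPAX8-1 and replicate 3 of shPAX8-2. With replicates 1 and 2 of shPAX8-1 only, HLA-C was at -0.43 (adjusted p = 0.0574, edgeR) and HLA-E at -0.34 (adjusted p = 0.0731), neither past the threshold. B2M, TAP1 and TAP2 had log2 fold changes of 0.23 (95% interval -0.06 to 0.52), -0.24 (-0.49 to 0.01) and 0.17 (-0.01 to 0.35). These 3 passed with replicates 3 and 4 of shPAX8-1 only, at 0.49 (adjusted p = 0.00473, edgeR), -0.45 (0.00821) and 0.25 (0.0414). TAP1 also passed without shPAX8-1 replicate 1 (-0.34) or shPAX8-2 replicate 3 (-0.33), and TAP2 without shPAX8-1 replicate 1 (0.24). Log2 fold change and GC content correlated over 14083 genes at a rank r of -0.53 in this comparison. With the GC trend removed NLRC5 was at -0.96 (SE 0.13), HLA-F at -0.59 (SE 0.09), HLA-B at -0.56 (SE 0.10), TAPBP at -0.26 (SE 0.08), HLA-E at -0.22 (SE 0.08) and HLA-C at -0.19 (SE 0.08), the last no longer past the threshold (adjusted p = 0.0582).

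In OS-LM1 PAX8 was 78.2 ± 13.1 CPM with shPAX8-1 and 79.2 ± 13.7 with shPAX8-2 (log2 fold change -0.02, 95% interval -0.29 to 0.25, n = 4 each), and 3 of 9 members differed, all lower with shPAX8-1, beside 11.7% of all genes lower, 11.4% higher and 23.1% called. These were NLRC5 at -0.67 (SE 0.18, adjusted p = 0.00722, edgeR), HLA-F at -0.66 (SE 0.14, adjusted p = 0.000892) and TAP1 at -0.45 (SE 0.13, adjusted p = 0.0114), and their groups did not overlap. TAP2 did not overlap either, at 0.13 (SE 0.09, adjusted p = 0.329). TAP1 was at -0.31 (adjusted p = 0.0867) without shPAX8-2 replicate 3. The intervals of the others were -0.41 to 0.13 for HLA-B, -0.50 to 0.12 for HLA-C, -0.44 to 0.03 for HLA-E, -0.21 to 0.37 for B2M, -0.05 to 0.30 for TAP2 and -0.44 to 0.00 for TAPBP. NLRC5 and HLA-F were thus lower with shPAX8-1 than with shPAX8-2 in both lines, by values that stayed past the threshold with the GC trend removed.

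The lines differed in class I level before any depletion. With sgNTC18 all 9 members were lower in OS-LM1 than in 786-M1A, beside 31% of all genes lower and 63% called. HLA-C was 9.19-fold and HLA-B 8.59-fold lower (log2 fold changes -3.20, SE 0.17, and -3.10, SE 0.15), HLA-F 3.41-fold, TAP1 3.04-fold, HLA-E 2.91-fold and NLRC5 2.86-fold. TAPBP, TAP2 and B2M were 1.99-fold, 1.59-fold and 1.58-fold lower. Every member's libraries were separate between the lines. The lines may carry different alleles of the classical genes, and mapping to the reference may count them unequally. Neither was tested.

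Among the shPAX8 libraries the members no longer shared a direction. Lower in OS-LM1 were HLA-C at -2.98 (SE 0.12), HLA-B at -2.67 (SE 0.10), TAPBP at -1.22 (SE 0.08), HLA-E at -1.11 (SE 0.09), TAP1 at -0.52 (SE 0.09) and HLA-F at -0.42 (SE 0.10) on the log2 scale, 6 of 9 members beside 41.5% of all genes lower and 83.1% called. TAP2 and B2M were higher in OS-LM1 by 0.44 (SE 0.06) and 0.33 (SE 0.10), beside 41.7% of all genes higher, and 4 members passed with an absolute log2 fold change over 0.58, beside 64.6% of all genes. With the GC trend removed TAP1 was at -0.24 (SE 0.06), HLA-F at -0.16 (SE 0.07, adjusted p = 0.0274, edgeR) and B2M at 0.06 (SE 0.06, adjusted p = 0.408), and HLA-F was at -0.04 (adjusted p = 0.553) with GC content of the transcript nearest in length. NLRC5 was at 0.11 (SE 0.13, 95% interval -0.14 to 0.36), and at 0.43 (SE 0.09, adjusted p = 4.16e-05, edgeR) with the GC trend removed.

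The response to the hairpins differed between the lines by a test of the difference itself, the interaction of line with depletion. It was above 0, that is, less negative or more positive in OS-LM1, for 7 of 9 members, beside 29.9% of all genes above 0, 28.8% below 0 and 58.7% called. NLRC5 differed by 1.62 (SE 0.21, adjusted p = 3.14e-07, edgeR), HLA-F by 1.35 (SE 0.16), TAP2 by 1.11 (SE 0.11), TAP1 by 1.08 (SE 0.15) and B2M by 1.00 (SE 0.18) on the log2 scale. HLA-B and HLA-E each differed by 0.43 (SE 0.17 and 0.14, adjusted p = 0.0261 and 0.0124). HLA-B was no longer past the threshold on leaving out any 1 of 6 libraries, sgNTC18 replicates 2 and 3, shPAX8-1 replicate 3 and shPAX8-2 replicate 3 of 786-M1A and sgNTC18 replicates 2 and 4 of OS-LM1, with values from 0.35 to 0.41, and it was at 0.27 (adjusted p = 0.104) with replicates 1 and 2 only of shPAX8-1 in 786-M1A. HLA-C was at 0.22 (95% interval -0.15 to 0.60), and at 0.30 (SE 0.10, adjusted p = 0.0125) with the GC trend removed, and TAPBP at -0.23 (-0.50 to 0.04), or at -0.35 (adjusted p = 0.0239) with those replicates only. The interaction of line with hairpin passed for HLA-B only, at 0.54 (SE 0.19, adjusted p = 0.0379), beside 12.7% of all genes above 0, 14.5% below 0 and 27.2% called, and that call was lost on leaving out any 1 of 9 shPAX8 libraries, 4 of OS-LM1 and 5 of 786-M1A, with values from 0.44 to 0.55. TAP1 also passed after removal of the GC trend, at -0.45 (SE 0.11, adjusted p = 0.00263). HLA-B lost its call in this interaction with replicates 1 and 2 only of shPAX8-1 in 786-M1A (0.29, adjusted p = 0.304, edgeR). It also lost the call with GC content of the transcript nearest in length (0.28, adjusted p = 0.0634, edgeR).

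Other genes of the pathway were counted from lists drawn up by function, with earlier results of these data known. Their counts beside the shares of all genes are therefore a description. The immunoproteasome subunits PSMB8, PSMB9 and PSMB10, which replace the constitutive catalytic subunits and alter the peptides that are cut, and the PA28 activator genes PSME1 and PSME2 fell in all 4 comparisons with sgNTC18, 5 of 5 each time. The log2 fold changes, here and in what follows in the order shPAX8-1 and shPAX8-2 in 786-M1A and then in OS-LM1, were -2.38, -2.18, -1.85 and -1.79 for PSMB10, -2.47, -2.10, -1.31 and -1.54 for PSMB9 and -1.99, -1.64, -0.83 and -0.87 for PSMB8. The list medians were -1.99, -2.10, -0.83 and -0.91. The constitutive catalytic subunits PSMB5, PSMB6 and PSMB7 also fell, 3 of 3 in 786-M1A (medians -1.05 and -1.23) and 2 of 3 in OS-LM1 (medians -0.82 and -0.55), where PSMB7 was at -0.09 and -0.14. The counts of both proteasome lists stand beside 34.6%, 31.5%, 32.9% and 32.1% of all genes that fell, in the same order.

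The loading chaperones moved in more than 1 direction. PDIA3, the oxidoreductase of the loading complex, rose in all 4 comparisons, by 1.40, 0.94, 0.84 and 0.55, and the lectin chaperones CANX and CALR rose in 786-M1A, by 1.08 and 0.49 and by 0.73 and 0.74. CALR fell in OS-LM1 (-0.42 and -0.23). TAPBPL, a tapasin relative that edits peptides, fell in all 4 comparisons (-2.29, -1.91, -0.63 and -0.81), as did the trimming peptidase ERAP1 (-0.79, -0.99, -1.15 and -0.98). Of the 6 genes of this list 4 rose and 2 fell with shPAX8-1 in 786-M1A, 3 rose and 2 fell with shPAX8-2, and 1 rose and 3 fell with each hairpin in OS-LM1. Of all genes 69.5%, 62.4%, 67% and 63.5% were called in these comparisons.

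Of 12 factors that act at class I promoters, 4 rose and 6 fell with shPAX8-1 and 1 rose and 6 fell with shPAX8-2 in 786-M1A, and in OS-LM1 5 rose and 3 fell and 6 rose and 4 fell, beside 69.5%, 62.4%, 67% and 63.5% of all genes called in these comparisons. The RFX complex, through which NLRC5 acts, fell in 786-M1A, with RFX5 at -1.51 and -1.77, RFXANK at -1.89 and -0.77 and RFXAP at -0.99 and -0.57. RFXANK (-0.90 and -0.72) and RFXAP (-0.61 and -1.63) also fell in OS-LM1, and RFX5 was at -0.12 with shPAX8-1, not past the threshold, and fell by 0.47 with shPAX8-2. CREB1 rose in OS-LM1 by 1.11 and 0.78. The 4 PRC2 subunits, parts of a complex that silences class I genes in some tumours, did not share a direction. In 786-M1A 2 rose and 1 fell with shPAX8-1 and 1 rose and 1 fell with shPAX8-2, and 1 rose and 3 fell with each hairpin in OS-LM1. These counts stand beside the same 69.5%, 62.4%, 67% and 63.5% of all genes called. The methyltransferase gene EZH2 fell in all 4 comparisons (-1.60, -1.60, -1.98 and -1.73), its paralogue EZH1 rose by 1.26 and 1.21 in 786-M1A and fell in OS-LM1 (-0.60 and -0.73), and SUZ12 rose by 0.65 with shPAX8-1 in 786-M1A and by 0.81 and 0.83 in OS-LM1 and was at 0.18 with shPAX8-2 in 786-M1A, not past the threshold.

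IRF9 (-1.93, -1.60, -0.43 and -0.83) and STAT2 (-1.72, -1.10, -0.37 and -0.27), parts of the factor that carries the type I interferon signal to the nucleus, fell in all 4 comparisons, whereas the receptor genes IFNGR1 and IFNGR2 rose in all 4 comparisons, IFNGR1 by 1.78, 0.84, 1.80 and 1.60. Of 10 genes of the list 4 rose and 4 fell, 3 rose and 5 fell, 4 rose and 4 fell and 3 rose and 5 fell, in the same order, beside 69.5%, 62.4%, 67% and 63.5% of all genes called. Both directions were thus present, as they were over all genes.

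Interferon-stimulated genes moved with class I genes in 786-M1A, where 20 and 21 of 22 fell and none rose (medians -3.75 and -4.43). Of all genes 34.6% and 31.5% fell in these comparisons. In OS-LM1 the counts differed by hairpin. With shPAX8-1 7 fell and 5 rose (median -0.05), beside 32.9% of all genes that fell and 34% that rose. The number that fell was thus near the share of all genes. The heavy chains in the same libraries were 1.67-fold to 3.30-fold lower than with sgNTC18. With shPAX8-2 15 fell and 3 rose (median -1.13), beside 32.1% of all genes that fell and 31.4% that rose. The 5 that rose with shPAX8-1 include GBP2, a guanylate-binding protein, at 2.72 and GBP1 at 1.80. Between the hairpins in OS-LM1 13 of the 22 were higher with shPAX8-1 and 2 lower (median 1.02), beside 11.4% of all genes higher, whereas HLA-F, NLRC5 and TAP1 were lower.

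NK ligand genes showed the opposite sign to the heavy chains for some members. ULBP2, a ligand of the activating receptor NKG2D, rose by 2.56 and 2.42 in 786-M1A, from 15.8 CPM with sgNTC18 to 93.4 and 84.8 CPM, and ULBP1 rose in all 4 comparisons, by 1.90, 1.37, 1.79 and 1.58. MICB rose by 1.96 with shPAX8-1 in 786-M1A and was at 0.17 with shPAX8-2, not past the threshold. ULBP2 was at or below 0.42 CPM in every group mean of OS-LM1. HLA-G was at or below 0.555 CPM in every group mean. Of the 8 genes tested 6 rose and 1 fell, 4 rose and 1 fell, 3 rose and 1 fell and 4 rose and 1 fell, in the same order, beside 34.9%, 30.8%, 34% and 31.4% of all genes that rose and 69.5%, 62.4%, 67% and 63.5% called. Of 11 class II presentation genes 5 passed the filter on low counts, and HLA-DRA was at or below 0.07 CPM in every group mean. Of the 5, 3 rose with shPAX8-1 and 2 with shPAX8-2 in 786-M1A and none fell, and 2 fell with each hairpin in OS-LM1 and none rose. Of all genes 34.9% and 30.8% rose in 786-M1A, and 32.9% and 32.1% fell in OS-LM1. CD74, the class II chaperone, was at 205 CPM in OS-LM1 sgNTC18 libraries, where it fell with both hairpins (-1.24 and -0.36), and it rose by 0.45 and 0.72 in 786-M1A. HLA-DMA, whose product helps load class II molecules, rose by 2.06 and 2.64 in 786-M1A, from 1.47 CPM to 6.04 and 9.02 CPM, and in OS-LM1 it fell by 0.77 with shPAX8-1 and was at -0.25 with shPAX8-2, not past the threshold.

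**Figure D4:**
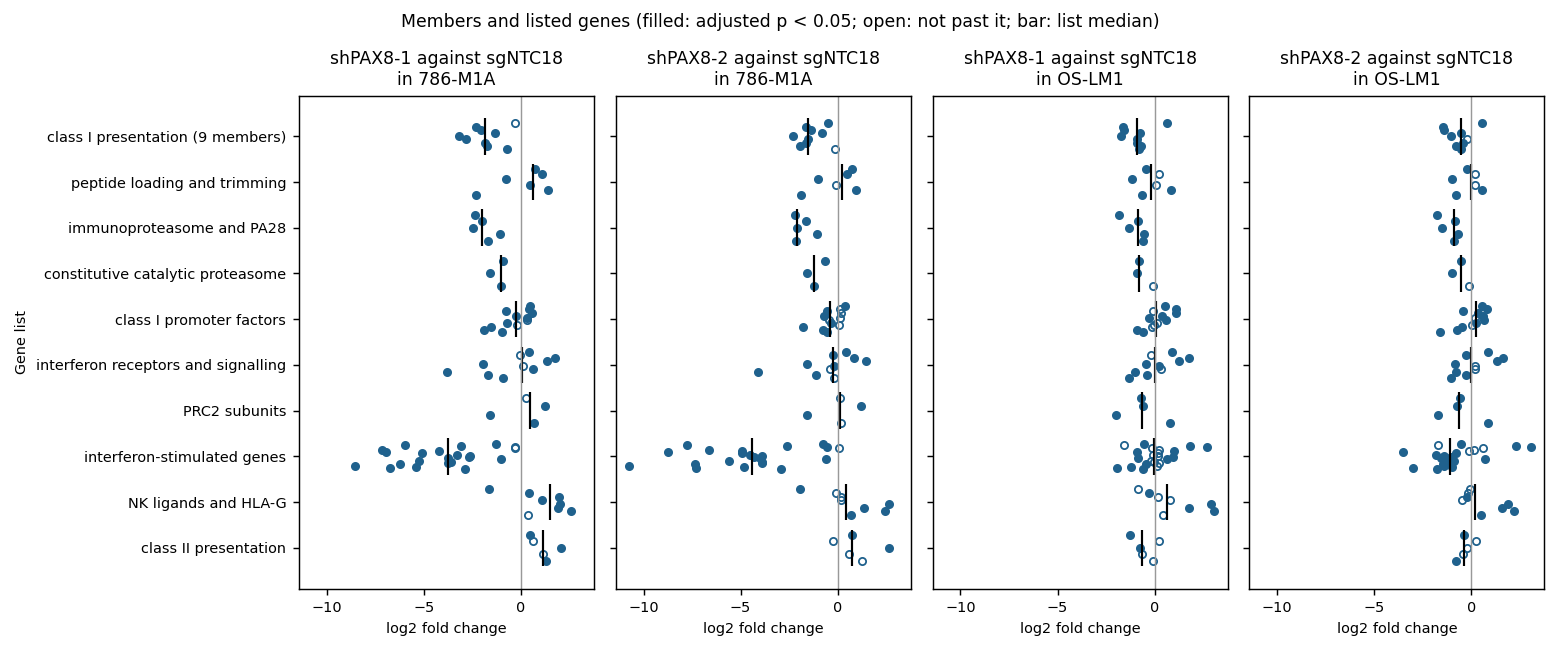
Log2 fold change (horizontal) of each member and of each tested gene of the lists for shPAX8 against sgNTC18, 1 panel per hairpin and line, with filled points at an adjusted p under 0.05, open points otherwise and a bar at the median of each list. The immunoproteasome list lies below 0 in all 4 panels, and interferon-stimulated genes lie below 0 in 786-M1A (medians -3.75 and -4.43) and on both sides of 0 with shPAX8-1 in OS-LM1 (median -0.05).

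Position on chromosome 6 was also described. Between HLA-F and TAPBP 108 tested genes are neither members nor class I genes or pseudogenes. Of these 38.9%, 32.4%, 47.2% and 46.3% fell in the 4 comparisons with sgNTC18, beside 34.6%, 31.5%, 32.9% and 32.1% of all genes, with medians of -0.19, 0.08, -0.44 and -0.44.

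Across the 24 libraries, with the mean of each line removed, HLA-B and HLA-C were the pair of members most alike (Pearson r = 0.991). B2M was least like the others, with r between -0.435 and 0.215. The 5 genes outside the members whose log2 CPM was most like the mean of the standardised members were ARF5, GRWD1, ITPA, EMC10 and PRKCDBP, with r between 0.989 and 0.991 among 9918 genes, and PAX8 was 7th at 0.987. The libraries share depth, GC trend and the contrast with sgNTC18, and these values are a description.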

How the data were processed

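The 24 cell line libraries were sequenced by the submitters. Per the submitters' processing notes reads were aligned with Bowtie2 and quantified with RSEM on GRCh38 (hg38), with versions not given in the sources used here. The deposited expected counts are RSEM estimates per gene, which need not be whole, and the deposited TPM values divide by transcript length and library total. Expected counts were rounded and tested with the robust quasi-likelihood test of edgeR 4.0.16 (R 4.3.3), TMM factors and filterByExpr by group, in 1 fit of 24 libraries and 6 groups, with Benjamini-Hochberg adjustment over 15665 genes and a threshold of 0.05. The study's methods name DESeq2, which was run here (1.42.0) as an alternative. Log2 CPM used a prior count of 2, and 95% intervals are 1.96 SE. GC content came from the longest GENCODE transcript of each gene (14083 genes with a value). Its trend was removed with a spline of 5 degrees of freedom per library. Groups came from the cell line and construct labels. All 10 comparisons used these groups.

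All members are named. Of each list up to 3 genes per comparison are named, those with the largest absolute log2 fold change past the threshold and an average log2 CPM of at least 1. IRF9, STAT2, HLA-G, HLA-DRA and the marker genes are named as values of their lists, and values outside that rule are given to complete a row of comparisons. The members and lists were chosen with earlier results of these data known. The summed heavy chains carry no p-value. Some genes of the lists are counted but not reported here by name. The scripts were tested on simulated data. The alternatives were other size factors, no filter, DESeq2, separate fits per line, the replicate block, GC content, subsets of the shPAX8-1 libraries, stricter thresholds and leaving out each library. NLRC5 had the fewest counts of the members, and the intervals given cover the spread between libraries only.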

Additional observations from a re-analysis of the deposited data

Results flagged for a closer look

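In 4 of 60 groups of 4 libraries checked, 1 library lay far from the other libraries of its group by Dixon's criterion, which chance alone does in about 1 group in 20. HLA-B was at 528 CPM in 786-M1A shPAX8-2 replicate 3, below the other replicates, and the summed heavy chains of the same library were at 959.7 CPM. HLA-E was at 139 CPM in 786-M1A shPAX8-1 replicate 1, above the others. TAP2 was at 45.6 CPM in OS-LM1 shPAX8-1 replicate 1, above the others.

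The depletion response differed between the lines by the interaction test of edgeR for 7 members, beside 58.7% of all genes. The log2 differences, OS-LM1 minus 786-M1A, were 1.62 for NLRC5 (adjusted p = 3.14e-07), 1.35 for HLA-F (6.31e-08), 1.11 for TAP2 (2.46e-09), 1.08 for TAP1 (1.25e-06), 1.00 for B2M (3.86e-05), 0.43 for HLA-B (0.0261) and 0.43 for HLA-E (0.0124). PAX8 itself differed by 1.87 (7.53e-10) in the same direction, and the part of the depth of depletion in the members' differences was not tested. The difference between the hairpins differed between the lines for HLA-B, by 0.54 (adjusted p = 0.0379).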

How the results depend on the processing

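Of the values of single members under alternatives other than leaving out 1 library, 965 kept their direction and side of the threshold, 31 lost the call, 28 gained it and 20 changed sign. On leaving out 1 library 975 kept both, 16 lost the call, 12 gained it and 5 changed sign. The count of members called for the line by hairpin interaction, 1 in the fit reported, was the least stable: 3 with total counts, 2 with DESeq2, 2 with the GC trend removed, 0 with 786-M1A shPAX8-1 replicates 1 and 2 only, 6 with replicates 3 and 4 only, 0 at an adjusted p under 0.01 and 0 at an absolute log2 fold change over 0.58. That fold limit also left 4 members for shPAX8-2 in OS-LM1 and 4 for the lines among shPAX8 libraries. The wider sum of class I genes gave -1.20 for shPAX8-2 in 786-M1A.

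Over all groups 6 of 24 same-numbered pairs correlated over 0.1, a pooled count that cannot show whether replicate numbers pair the libraries of some groups. In 786-M1A shPAX8-1 and shPAX8-2 the same-numbered correlations were between 0.037 and 0.271 (mean 0.17). Those of different numbers were between -0.365 and 0.312 (mean -0.057), and whether these libraries are paired was not tested further. With the replicate block the interaction count was 2, also with the GC trend removed, and B2M with shPAX8-1 in 786-M1A passed the threshold (-0.31, adjusted p = 0.0403, edgeR).

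Signs changed for values near 0, and the cause was not tested. With total counts the line by hairpin interaction of TAP2 was 0.041. With the GC trend removed, alone, with the block or with the transcript nearest in length (chosen after seeing the data), NLRC5 with shPAX8-2 in OS-LM1 was 0.054, 0.055 and 0.050, the hairpin difference in 786-M1A was -0.19, -0.19 and -0.20 for B2M and 0.10, 0.10 and 0.11 for TAP1, and the line by hairpin interaction of B2M was 0.21, 0.21 and 0.22, that of HLA-F being -0.036 with the last. With shPAX8-1 replicates 1 and 2 only, B2M was -0.11 between the hairpins in 786-M1A and 0.18 in the interaction, where TAP2 was 0.048, and NLRC5 was -0.080 between lines. With replicates 3 and 4 only, B2M was 0.011 with shPAX8-1 in 786-M1A and TAP1 0.0034 in the interaction.

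Leaving out 1 library gave between 0 and 4 members called for the line by hairpin interaction, 6 and 7 for line by depletion, 8 and 9 for shPAX8-1 in 786-M1A, 6 and 8 between the hairpins in 786-M1A and 2 and 3 in OS-LM1. B2M between the hairpins in OS-LM1 ranged from -0.028 to 0.17, and TAP2 in the line by hairpin interaction from -0.11 to 0.0049. The summed heavy chains ranged from -2.32 to -2.08 and -1.56 to -1.40 in 786-M1A and from -1.43 to -1.32 and -1.26 to -1.12 in OS-LM1, and from -0.83 to -0.59 and -0.26 to -0.12 between the hairpins. Over all genes, calls between the hairpins went from 7536 to 3890 with replicates 1 and 2 and 4536 past the fold limit in 786-M1A, and from 3625 to 2200 at 0.01 and 1895 past it in OS-LM1, where total counts turned 1790 higher and 1835 lower into 2405 and 1270. For the interaction of hairpin and line 4264 became 2579, 6817 (replicates 3 and 4) and 2449 (at 0.01), and 1993 higher and 2271 lower became 2436 and 1755 with total counts.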
